A study of Mus musculus with 14 samples.

Results

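Microglia are the resident macrophages of the brain and survive in small numbers in cultures of neonatal astrocytes. They carry genes of the myeloid lineage, under the lineage transcription factor PU.1, for sensing damage and microbes, binding antibody-coated particles, tagging debris with complement and engulfing it. The 39 genes described here are microglial and myeloid genes chosen by symbol, with earlier results of these data known. Shares over all probes given beside them are therefore no independent test. Each gene was read from the probe measured in most samples (then the highest mean). Of the 39, 36 had a named probe on the array, which covers 13661 named genes with 33600 probes. Cd68, Cx3cr1 and Csf1r had no probe with their symbol. Several probes existed for 6 members.

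RNA was measured in cultured cortical astrocytes of newborn mice, per the titles, although the protocol names whole brain as the tissue dissected. Brains of littermates were cultured one by one, kept in serum to confluence and passaged once. The groups were wild-type cells (6 samples), cells without connexin43 (Cx43, the gap junction protein encoded by Gja1; 4 samples, called null) and wild-type cells transfected with an siRNA against Cx43 (4 samples). The allele and the strain of the null mice are not given in the labels, and no mock-transfected or control-siRNA sample is among the samples used here. The series' design names 36 h of siRNA, and the protein protocol 48 h. Each sample was labelled with Cy3 or Cy5 from 20 ug of RNA. The series' design speaks of independent cultures, but nothing ties a sample to one. The spread on which the p-values rest is therefore that between samples, and it may be technical in part or in whole.

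The deposited values are log2 values centred on a median of 0 in each sample, and between 17849 and 26826 probes per sample had one (53.1% to 79.8%). The columns of wild-type replicates 1, 2 and 5 departed from all others and correlated with the mean of 11 samples at 0.37, 0.38 and -0.02, respectively, against 0.89 to 0.95 for each of the 11 with the rest. Results therefore rest on wild-type replicates 3, 4 and 6, null replicates 1 to 4 and siRNA replicates 1 to 4. Replicates 1 and 2 stood apart from replicates 3 and above in both groups that hold them, and replicates 1 and 2 of a group were close to copies of each other (r = 0.99 in both groups) with opposite dyes. The number of arrays limits the precision, and the depth behind a value (its signal over background) is unknown. Gja1 itself read 6.08, 7.53 and 4.82 in wild type. The null samples read -1.17, -1.06, 2.82 and 3.03, and the samples labelled siRNA read 1.93, 2.14, 5.47 and 5.70. Its level in siRNA replicates 3 and 4 thus lay inside the wild-type range, and siRNA stands below for that label. For Gja1, null minus wild type was -3.31 (limma, adjusted p = 0.0478), a call lost in 9 of 11 fits that left out 1 sample each, and siRNA minus wild type was -0.41 (limma, adjusted p = 0.733).

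**Figure D1:**
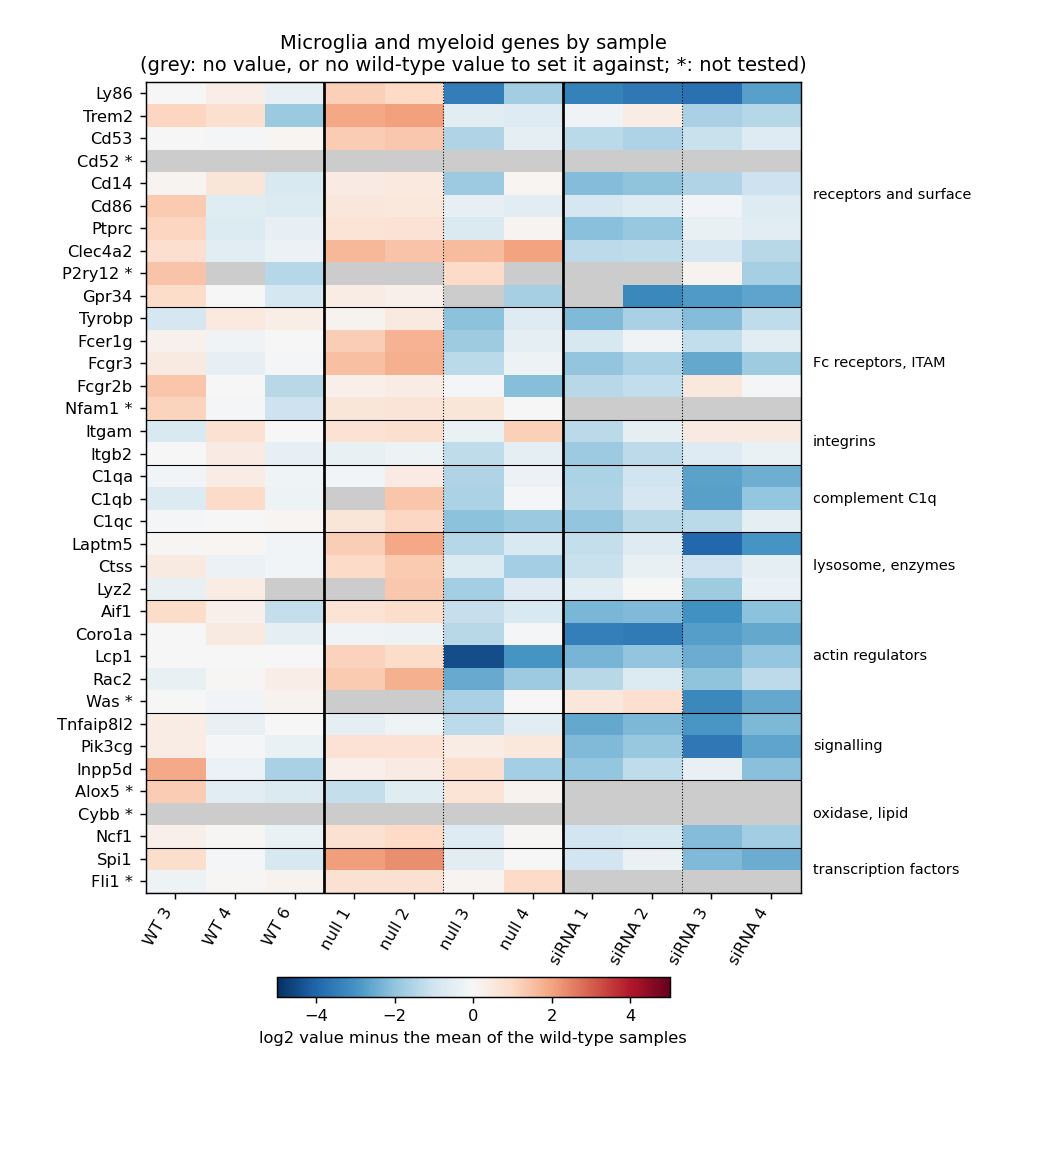
Log2 value of each of the 36 members with a probe (rows, grouped by role) in each of 11 samples (columns), minus the mean of the wild-type samples of that gene; colours run from 5 below to 5 above on the log2 scale and grey marks no value. Null replicates 1 and 2 are mostly above wild type, null replicates 3 and 4 mostly below, and all siRNA samples mostly below.

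Of 29 members tested, 15 were lower in the siRNA samples than in wild type and 0 higher, where 2.12% and 5.40% of all probes were, and 14 were not called. Within the null samples, 21 were lower in replicates 3 and 4 than in replicates 1 and 2 (8.78% of probes). Over the 26 members measured in all 11 samples, the mean log2 level was 2.87, 2.54 and 2.09 in wild type. It was 3.27 and 3.45 in null replicates 1 and 2 and 1.34 and 1.88 in null replicates 3 and 4. The siRNA samples had 0.78, 1.14, 0.75 and 1.06, all below every other sample. Of the 29 members with enough values to test, 23 of the 27 measured in null replicate 1 and 26 of 29 in null replicate 2 were above their wild-type mean. In null replicates 3 and 4 it was 3 of 28 and 6 of 29, and in the siRNA samples between 0 and 2. The share of all probes above their wild-type mean was not counted, so these counts have no baseline. For replicates 1 and 2 they also set 1 replicate set against wild type of the other. Fewer microglia in a culture and less RNA of these genes per microglial cell cannot be told apart in such bulk samples.

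Against wild type, 15 of 29 tested members fell in the siRNA samples and 0 rose, where 2.12% of all 16307 probes tested fell and 5.40% rose. These calls come from limma with a group term, a term for the replicate set (1 and 2 against 3 and above) and a dye term, at an adjusted p under 0.05 over all probes. Wild type had no usable sample in replicates 1 and 2, so the set term came from null and siRNA samples and was taken as equal in both. Where the sets changed differently in null and siRNA, as in Lcp1 and Ly86 below, the fitted size is partly extrapolated. The median difference of the 29 members was -1.96 on the log2 scale, against 0.13 for all probes. In 19 of the 29 members (65.5%) all measured siRNA values lay below all measured wild-type values, as did 10.9% of all probes. Missing values are passed over in this and the later counts of separation. Without wild-type replicate 3 the count of fallen members was 9, and without siRNA replicate 4 it was 8. By role, the fallen genes were 4 of 4 actin regulators, 2 of 3 C1q chains, 2 of 4 Fc receptor and adaptor genes, 2 of 3 signalling genes, 2 of 8 surface receptors, 1 of 3 lysosomal genes, 0 of 2 integrin chains, and Ncf1 and Spi1. The 14 members that were not called differed by between -1.81 (Trem2) and 0.14 (Itgam). With consecutive samples (replicates 1 and 2, 3 and 4) treated as a correlated pair, 5 of these 15 calls were kept (0.239% of all probes fell), those of Laptm5, Pik3cg, Tnfaip8l2, C1qa and Coro1a.

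The clearest difference was in Laptm5, which encodes a lysosomal membrane protein of blood-derived cells. Its log2 values were 3.51, 3.53 and 3.30 in wild type and 2.27, 2.82, -0.47 and 0.49 in the siRNA samples. The siRNA samples did not reach the wild-type range, and the fitted difference was -3.38 ± 0.36 (SE; limma, adjusted p = 0.000564). Pik3cg, the catalytic subunit of a phosphoinositide 3-kinase that acts downstream of G protein-coupled receptors in leukocytes, read 0.33, -0.09 and -0.37 in wild type and -2.25, -1.95, -3.60 and -2.67 after siRNA. It differed by -2.88 ± 0.40 (SE; limma, adjusted p = 0.0032) with no overlap. Tnfaip8l2, a brake on immune receptor signalling, read 1.06, 0.34 and 0.71 in wild type against -1.85, -1.54, -2.22 and -1.56 after siRNA. Its difference was -2.66 ± 0.39 (SE; limma, adjusted p = 0.00378), again without overlap.

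Actin regulators shape the moving and engulfing microglial cell. Coro1a, coronin of leukocytes, read 3.76, 4.17 and 3.27 in wild type and 0.30, 0.21, 0.97 and 1.18 after siRNA. That is a difference of -2.95 ± 0.48 (limma with SE, adjusted p = 0.00554). Another probe of Coro1a gave -1.77 (limma, adjusted p = 0.179). It read 2.48, 1.27 and -0.80 in wild type and 0.19, 0.70, 0.39 and -0.58 after siRNA, so the groups overlapped there. Aif1, better known as the microglial stain Iba1, read 4.66, 3.96 and 2.55 in wild type and 1.44, 1.53, 0.68 and 1.69 after siRNA. It fell by 2.91 (limma, adjusted p = 0.0148), a call that was lost without wild-type replicate 3, wild-type replicate 4 or siRNA replicate 3 (limma, adjusted p up to 0.0599). Lcp1, the actin bundler plastin of leukocytes, read 2.72, 2.68 and 2.74 in wild type and 0.40, 0.73, 0.22 and 0.77 after siRNA. The gap (means 2.71 and 0.53) is wide against the spread within either group. The fitted difference of -3.31 ± 0.91 was close to the threshold (limma, adjusted p = 0.0484). It exceeds the gap because the set term of -2.40, shared by null and siRNA, was applied to siRNA as well. The siRNA means were 0.563 in replicates 1 and 2 and 0.495 in replicates 3 and 4. Rac2, a small GTPase of blood cells that drives actin assembly, fell by 2.32 (limma, adjusted p = 0.0458).

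The C1q chains form the recognition molecule of the classical complement cascade, made in the brain chiefly by microglia. C1qa read 6.14, 6.66 and 6.05 in wild type and 4.70, 5.27, 3.60 and 3.83 after siRNA, without overlap, and fell by 2.43 (limma, adjusted p = 0.00435). C1qb fell by 2.27 (limma, adjusted p = 0.0143) from 5.66, 7.29 and 6.10 to 4.86, 5.51, 3.64 and 4.40. C1qc was at 5.76, 5.81 and 5.92 against 3.85, 4.45, 4.47 and 5.38, which differ without overlap, but the fitted difference of -1.72 did not pass (limma, adjusted p = 0.168).

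Ly86 is a surface partner of the Toll-like receptor relative CD180. Its values were 4.52, 4.82 and 4.11 in wild type and 1.11, 0.90, 0.74 and 1.78 after siRNA. It fell by 4.15 (limma, adjusted p = 0.0144), or by 3.16 with siRNA replicates 3 and 4 alone against wild type (limma, adjusted p = 0.00352), and the call was lost without wild-type replicate 3 or 4, as was that of Fcgr3 below without wild-type replicate 3. Gpr34, a lysophospholipid receptor typical of microglia, read 0.83, -0.11 and -0.94 in wild type and -3.30, -2.89 and -2.71 in the 3 siRNA samples that measured it. It fell by 3.13 (limma, adjusted p = 0.011). Fcgr3, a receptor for immunoglobulin G, fell by 2.63 (limma, adjusted p = 0.0173), and Tyrobp, the signalling adaptor through which Trem2 and other receptors act, by 2.05 (limma, adjusted p = 0.0292). Trem2 itself, a lipid-sensing receptor of microglia, read 2.75, 2.47 and -0.17 in wild type and 1.51, 2.05, 0.07 and 0.26 after siRNA. Wild-type replicate 6 lay below all siRNA samples, and the difference of -1.81 did not pass (limma, adjusted p = 0.128).

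Spi1 encodes PU.1 itself, the factor on which microglia and other myeloid cells depend. It read 2.67, 1.68 and 1.00 in wild type and 0.81, 1.44, -0.42 and -0.71 after siRNA. The groups overlapped through siRNA replicate 2, and the fitted difference was -2.57 ± 0.48 (SE; limma, adjusted p = 0.0106). Ncf1, a cytosolic subunit of the phagocyte NADPH oxidase, fell by 1.96 (limma, adjusted p = 0.0102) from 3.39, 3.19 and 2.78 to 2.18, 2.25, 0.96 and 1.37. The calls of Ncf1, Spi1 and C1qb were lost without siRNA replicate 4.

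**Figure D2:**
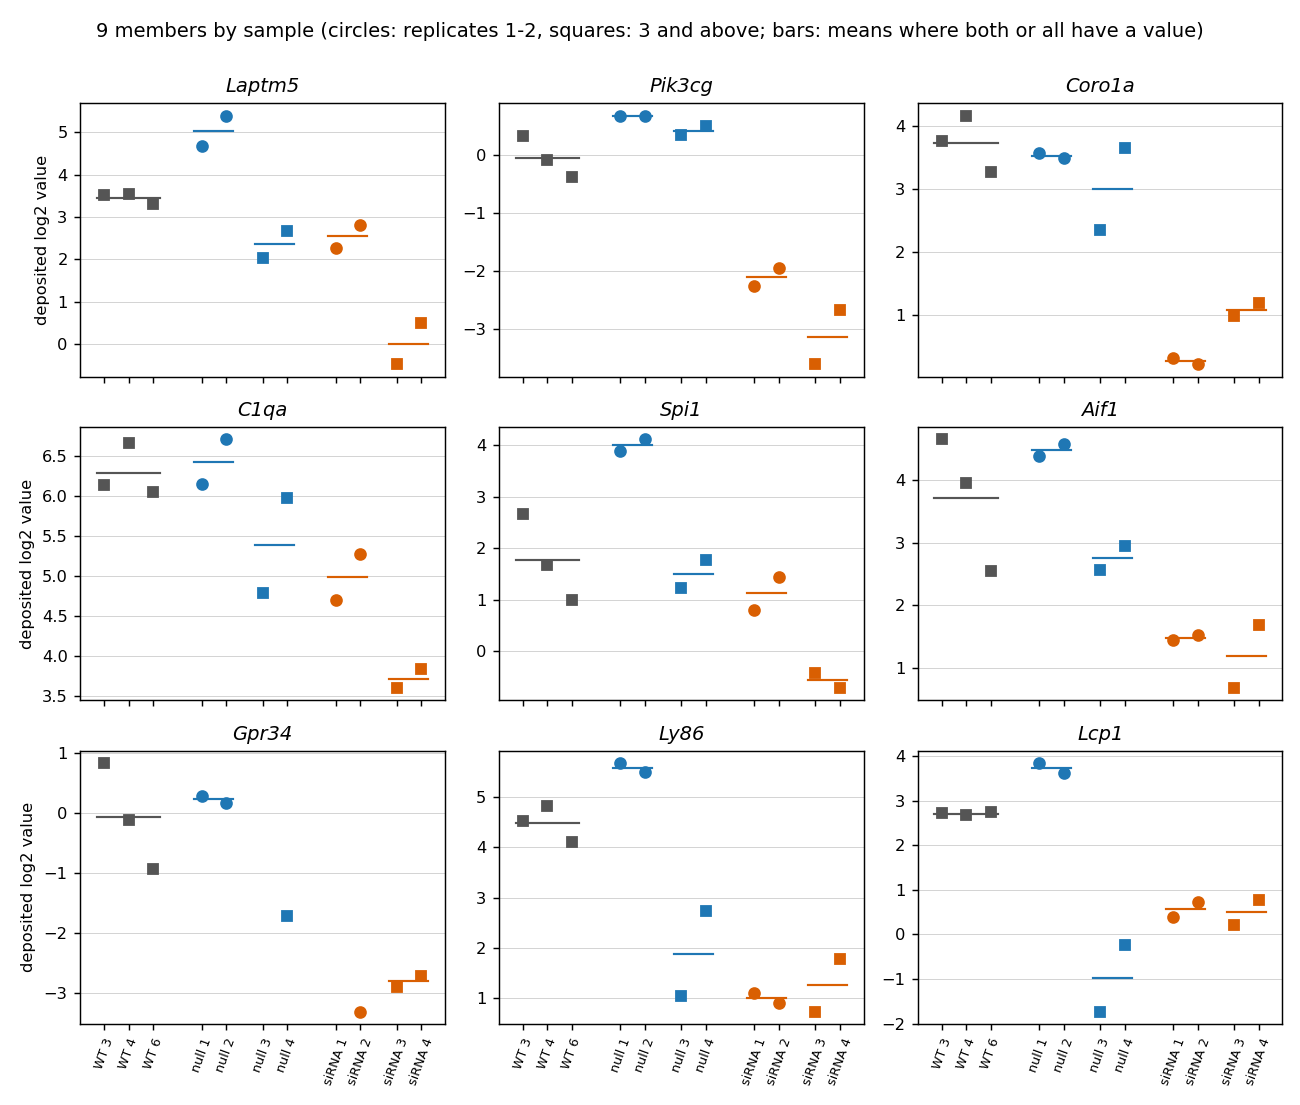
Deposited log2 value of 9 members in each of the 11 samples; circles are replicates 1 and 2, squares replicates 3 and above, and bars are means of a group within a replicate set. Pik3cg and the plotted probe of Coro1a separate the siRNA samples from all others, whereas Lcp1 lies lower in null replicates 3 and 4 than in any siRNA sample.

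Since Spi1 is itself a member, the promoters of the members were read for the PU.1 core GAGGAA. RefSeq entries on GRCm38.p6 held a promoter for 28 of the 39 members, and the 250 bases before the start site were searched on both strands. The core stood in 14 of 28 member genes (50.0%) and in 25.9% of 27025 genes, or in 15 of 35 member promoters (42.9%) and 23.3% of 32851 promoters. The longer GAGGAAGT, which contains the core, stood in 3 of 35 member promoters (8.57%) against 2.44% of all, and the AP-1 motif TGANTCA in 4 of 35 (11.4%) against 6.75%. A match is a run of letters and no measured binding site. The windows of 5 members that fell after siRNA and hold the core are printed here to show where it stands; capitals mark GAGGAA or its reverse complement TTCCTC.
Laptm5 (chr4:130913066-130913315, + strand): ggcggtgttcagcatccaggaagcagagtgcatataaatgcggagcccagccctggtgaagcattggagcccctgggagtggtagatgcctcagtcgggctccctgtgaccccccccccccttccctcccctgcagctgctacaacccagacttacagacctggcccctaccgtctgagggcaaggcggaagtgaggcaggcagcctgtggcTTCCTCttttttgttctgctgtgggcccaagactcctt
Pik3cg (chr12:32208471-32208720, - strand): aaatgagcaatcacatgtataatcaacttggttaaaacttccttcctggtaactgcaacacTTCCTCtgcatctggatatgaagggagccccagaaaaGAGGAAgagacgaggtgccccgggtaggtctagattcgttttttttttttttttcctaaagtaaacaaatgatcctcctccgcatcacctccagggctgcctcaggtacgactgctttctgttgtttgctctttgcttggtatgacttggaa
C1qb (chr4:136886201-136886450, - strand): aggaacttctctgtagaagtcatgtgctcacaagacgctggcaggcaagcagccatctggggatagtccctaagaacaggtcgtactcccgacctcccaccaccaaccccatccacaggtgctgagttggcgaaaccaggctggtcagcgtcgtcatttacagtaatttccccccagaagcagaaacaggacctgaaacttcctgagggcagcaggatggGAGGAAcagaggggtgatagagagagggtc
Aif1 (chr17:35176053-35176302, - strand): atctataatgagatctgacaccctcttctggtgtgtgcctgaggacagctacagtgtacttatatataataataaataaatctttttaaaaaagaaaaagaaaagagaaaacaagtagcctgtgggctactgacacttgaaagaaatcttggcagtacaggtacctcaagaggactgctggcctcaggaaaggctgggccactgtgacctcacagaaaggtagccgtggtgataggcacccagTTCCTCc
Fcgr3 (chr1:171059395-171059644, - strand): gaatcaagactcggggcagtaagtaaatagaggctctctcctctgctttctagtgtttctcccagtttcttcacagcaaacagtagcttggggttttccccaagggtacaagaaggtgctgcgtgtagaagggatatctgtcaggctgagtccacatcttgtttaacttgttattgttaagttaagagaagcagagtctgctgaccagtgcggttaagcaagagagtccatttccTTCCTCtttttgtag
In Laptm5, C1qb, Aif1 and Fcgr3 the match begins 38, 30, 7 and 15 bases before the start site, and in Pik3cg there are 2 matches, 189 and 152 bases before it. Coro1a, Tnfaip8l2, Ly86, Lcp1 and Ncf1, which fell as well, have no GAGGAA in the windows listed for them.

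Between null and wild-type samples 0 of 29 members were called in either direction by the same test, where 0.362% of all probes were. With so few calls among all probes, the count of 0 says little about the members. Both comparisons with wild type share its 3 samples. At an unadjusted p under 0.05 there were 4 members. The median difference was -0.50, against 0.20 for all probes, and the values ran from -2.47 (Lcp1) to 1.72 (Clec4a2). In 0 of 29 members did all null samples lie below all wild-type samples (4.40% of all probes). Wild type was usable only in replicates 3 and above, and most members of the null replicate sets lay on opposite sides of it. Set against wild type with a mean of their own (limma, 1 mean per group and replicate set), null replicates 3 and 4 were lower in 4 members and higher in 1, where 1.67% and 3.86% of probes were. Lcp1 read -1.73 and -0.24 there against 2.68 to 2.74 in wild type, a difference of -3.63 (limma, adjusted p = 0.00137). Ly86 read 1.04 and 2.73 against 4.11 to 4.82, a difference of -2.53 (limma, adjusted p = 0.0182). Rac2 read 0.30 and 1.01 against 2.43 to 3.15, and C1qc 3.79 and 3.98 against 5.76 to 5.92. Their differences were -2.06 and -1.87 (limma, adjusted p = 0.0067 and 0.0147). In 13 of 29 members all measured null values of that set lay below all measured wild-type values, as did 8.24% of all probes. In the same fit the siRNA replicates 3 and 4 were lower than wild type in the 15 members named above as fallen, where 4.44% of probes were, and higher in 0 (6.49% of probes). All measured siRNA values of that set lay below all measured wild-type values in 21 of 29 members, as did 17.8% of all probes. Gja1 of these siRNA samples nevertheless lay in the wild-type range.

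Null minus wild type was above 0 in 4 of 29 members (Clec4a2, Itgam, Ptprc and Pik3cg), and 0 of them were called in the model with replicate set and dye. The value for Clec4a2, a lectin receptor of myeloid cells, was the highest. It read -0.54, -1.92 and -1.65 in wild type, 0.28, 0.04, 0.22 and 0.64 in null and -2.66, -2.65, -2.20 and -2.75 after siRNA, so that none of the 3 groups overlapped. Null minus wild type was 1.72 (limma, adjusted p = 0.0765), and 1.74 for null replicates 3 and 4 alone (limma, adjusted p = 0.0393). Another probe with the same symbol showed no such order, with null minus wild type at -0.04 (limma, adjusted p = 0.988) and null minus siRNA at -0.16 (limma, adjusted p = 0.895). The higher level in null therefore rests on 1 of the probes of Clec4a2.

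**Figure D3:**
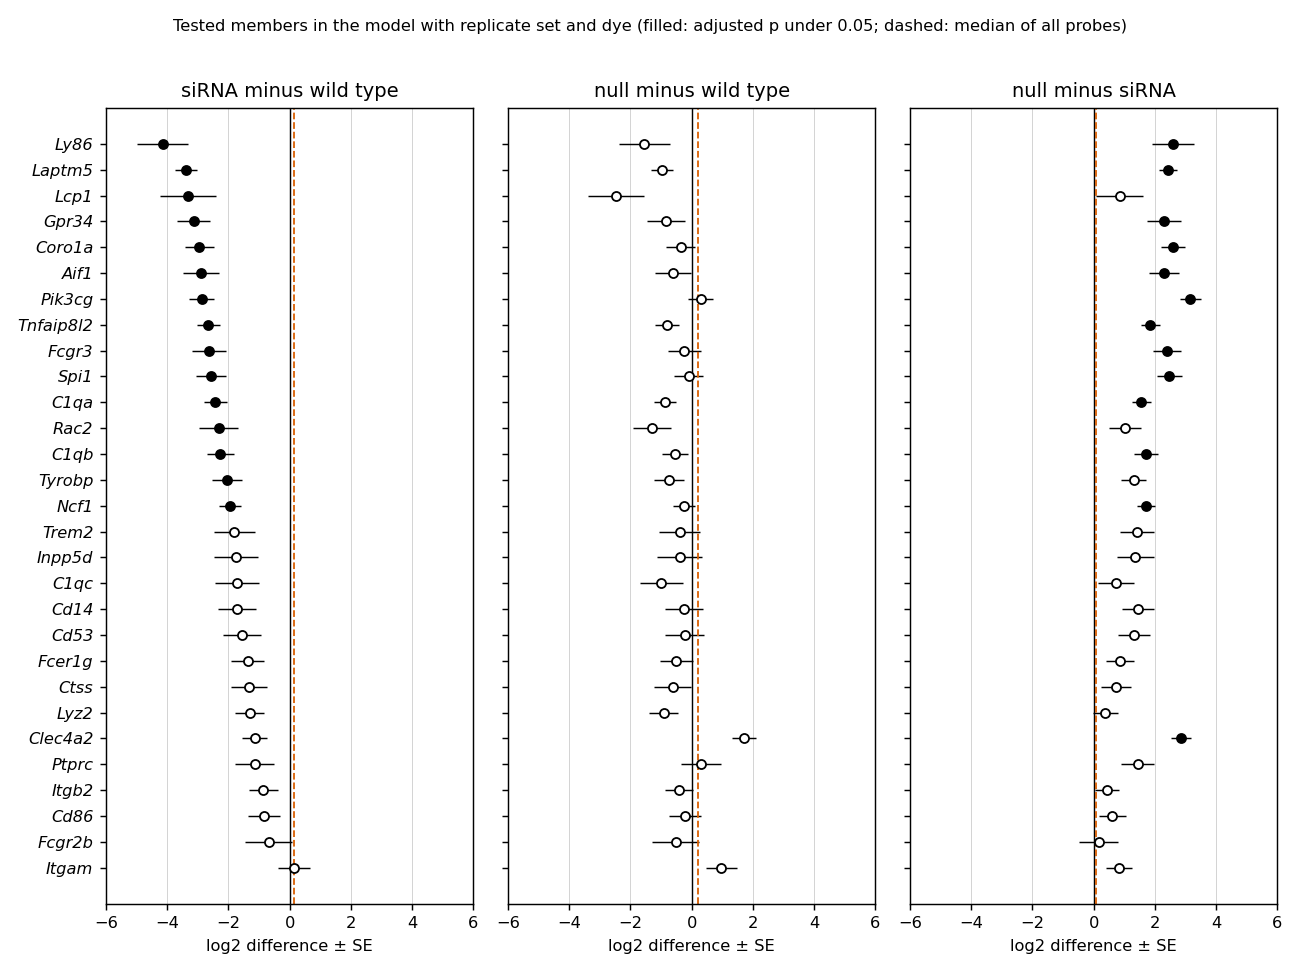
Fitted log2 difference ± SE of the 29 tested members for siRNA minus wild type, null minus wild type and null minus siRNA, from the model with replicate set and dye; filled points have an adjusted p under 0.05 and the dashed line is the median of all probes. In the left panel 15 points are filled, in the middle 0 and in the right 13.

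Directly compared, 13 of 29 members were higher in null than in siRNA samples and 0 lower, where 3.81% of all probes were higher and 2.60% lower. The difference was above 0 in 29 of 29 members, with a median of 1.44 against 0.07 for all probes. Pik3cg read 0.67, 0.68, 0.34 and 0.50 in null, above all 4 siRNA values given before, and differed by 3.17 ± 0.34 (SE; limma, adjusted p = 0.000632). Clec4a2 differed by 2.86 (limma, adjusted p = 0.000966), Coro1a by 2.60 (limma, adjusted p = 0.00456), Spi1 by 2.47 (limma, adjusted p = 0.00643) and Laptm5 by 2.42 (limma, adjusted p = 0.00126). For Coro1a the null values were 3.57, 3.49, 2.35 and 3.66, and another probe of the gene gave -0.34 (limma, adjusted p = 0.781). Complete separation of all measured null from all measured siRNA values occurred in 8 of 29 members (27.6%) and in 6.48% of probes. Gpr34 is counted there with 3 values in each group. Spi1 and Laptm5 are not among these, because their null replicates 3 and 4 lay within or near the range of siRNA replicates 1 and 2. The other called members were Tnfaip8l2, Ncf1, Fcgr3, C1qa, Aif1, C1qb, Gpr34 and Ly86, with differences between 1.56 and 2.60. With consecutive samples as a correlated pair 4 calls were kept (0.307% of all probes were higher), those of Clec4a2, Coro1a, Laptm5 and Pik3cg. Without null replicate 4 the count of members called was 8.

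The size of this difference depended on the replicate set. In a fit of the 8 null and siRNA samples, 26 of 29 members were higher in null replicates 1 and 2 than in siRNA replicates 1 and 2 and 0 lower (7.31% of all probes were higher and 8.12% lower), with a median of 2.49 against -0.10 for all probes. In replicates 3 and 4, 12 members were higher and 2 lower (21.6% and 10.3% of probes), with a median of 0.62 against 0.24. The 12 were also among the 26. In replicates 1 and 2 all measured siRNA values lay below all measured null values in 29 of 29 members, against 30.0% of probes. In replicates 3 and 4 this held in 13 of 29, against 39.5%. C1qb, Lyz2 and Gpr34 each lacked a value in replicates 1 and 2. The test of the change itself called 14 members, all with a smaller difference in replicates 3 and 4, where 6.19% of probes were called in that direction and 12.1% in the other. Over the 11 samples with 1 mean per group and set, 5 of the 14 passed (Lcp1, Ly86, C1qc, Rac2 and Cd53), where 1.71% of probes did in that direction. The fit of 8 samples leaves 3 residual degrees of freedom and rests on replicates 1 and 2 that are close to copies: without null replicate 1, 1 member was called higher in replicates 1 and 2 in place of 26, and without null replicate 2 it was 6. The 14 calls in replicates 3 and 4 became 5 without siRNA replicate 3 and 4 without siRNA replicate 4. The 14 calls of the change became 3 without null replicate 1, null replicate 2, siRNA replicate 3 or siRNA replicate 4, 6 without siRNA replicate 1 and 5 without siRNA replicate 2.

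The size of the change varied among the members without a clear division. Lcp1 went from 3.17 in replicates 1 and 2 to -1.48 in replicates 3 and 4, a change of -4.66 ± 0.58 (SE; limma, adjusted p = 0.00525). Ly86 went from 4.57 to 0.62, C1qc from 2.50 to -1.04 and Rac2 from 2.56 to -0.51 (limma, adjusted p of the change 0.0145, 0.00391 and 0.00402). Lcp1 and C1qc were called lower in null than in siRNA replicates 3 and 4, the reverse of replicates 1 and 2. Cd53, a tetraspanin of leukocytes, went from 2.75 to -0.11, and Ptprc, the leukocyte phosphatase CD45, from 2.69 to 0.20 (limma, adjusted p of the change 0.014 and 0.0151). Another probe of Ptprc had no value in siRNA replicates 1 and 2. It read -1.51 and -1.27 in null replicates 1 and 2 and -0.36 and -1.16 in null replicates 3 and 4, and so did not fall within null. All 4 tested Fc receptor and adaptor genes (Tyrobp, Fcer1g, Fcgr3, Fcgr2b) and 5 of 8 surface receptors were among the 14. By contrast, Laptm5 differed by 2.49 and 2.35, Pik3cg by 2.77 and 3.56, Ncf1 by 1.78 and 1.65, C1qa by 1.44 and 1.67 and Spi1 by 2.88 and 2.07. The change was not called for these 5 (limma, adjusted p between 0.232 and 0.841). Other members lay between: Fcgr3 changed and was still higher in null replicates 3 and 4, by 1.36 after 3.42 in replicates 1 and 2. Itgam went from 1.67 to -0.01 and Cd14, a lipopolysaccharide co-receptor, from 2.52 to 0.39 without a called change (limma, adjusted p = 0.085 and 0.0641).

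**Figure D4:**
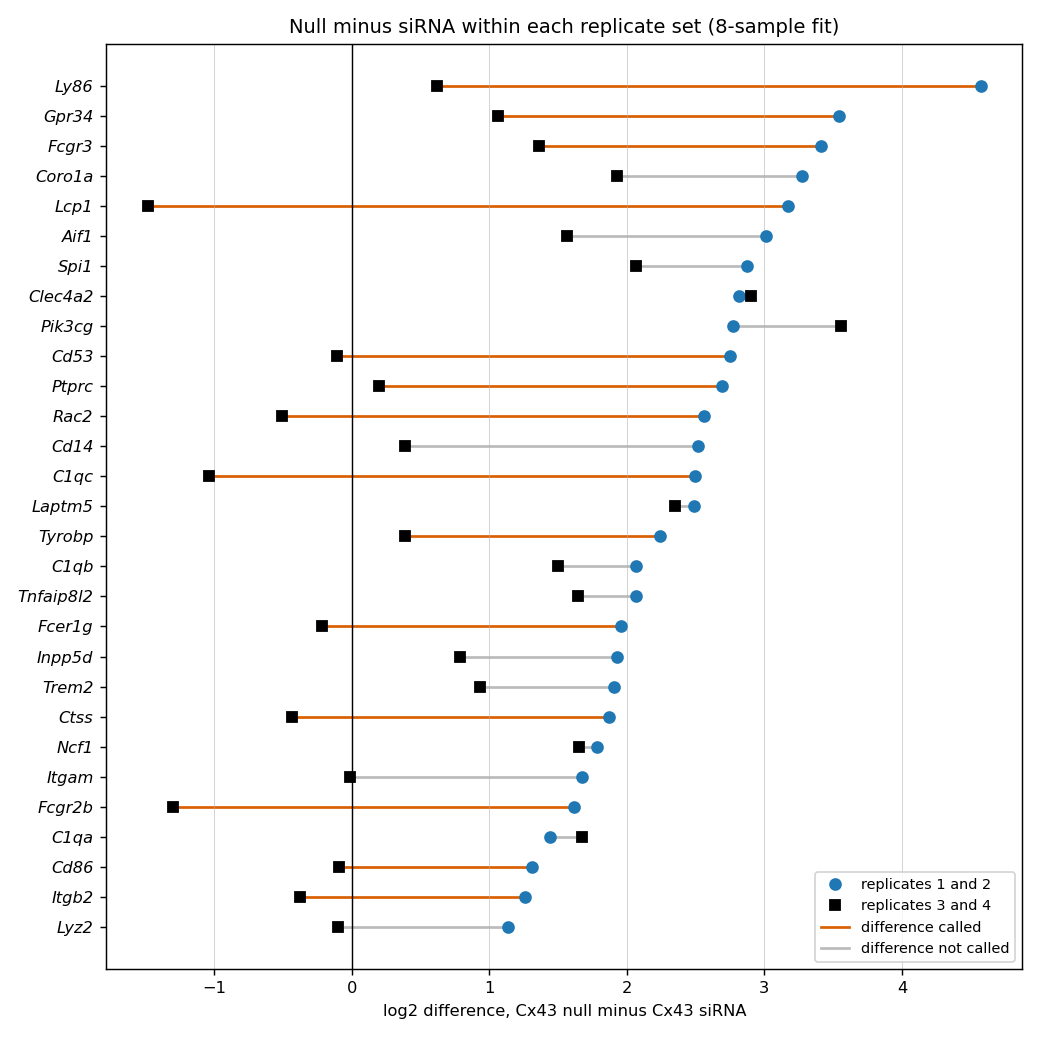
Fitted log2 difference, null minus siRNA, of each of the 29 tested members in replicates 1 and 2 (circles) and in replicates 3 and 4 (squares), from the 8 null and siRNA samples; orange lines mark members whose change between the sets had an adjusted p under 0.05. All 29 circles lie above 0, and 14 lines are orange.

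The sets differed within the null group more than within the siRNA group. Null replicates 3 and 4 were lower than null replicates 1 and 2 in 21 of 29 members and higher in 0, where 8.78% of probes were lower and 48.5% higher, with a median of -1.73 against 0.92 for all probes. siRNA replicates 3 and 4 were lower than siRNA replicates 1 and 2 in 7 members and higher in 4, where 11.6% and 40.2% of probes were, with a median of -0.01 against 0.67. In null, all measured values of replicates 3 and 4 lay below all those of replicates 1 and 2 in 25 of 29 members (15.6% of all probes). After siRNA this held in 7 of 29 (19.6%). Laptm5, C1qa, C1qb, Ncf1, Spi1 and Trem2 were lower in both groups. Laptm5 read 4.68 and 5.39 against 2.04 and 2.67 in null, and 2.27 and 2.82 against -0.47 and 0.49 after siRNA, with no overlap in either. Spi1 read 3.89 and 4.12 against 1.23 and 1.78 in null, and 0.81 and 1.44 against -0.42 and -0.71 after siRNA. Rac2 was called lower within the null group, from 4.13 and 4.58 to 0.30 and 1.01, and read 1.45 and 2.14 against 0.80 and 1.51 after siRNA, which was not called. In the model with 1 set term for both groups, 11 members were lower in replicates 3 and above and 0 higher, where 6.13% of probes were lower and 40.4% higher. That count was 6 without null replicate 2 or 3 and 7 without null replicate 4. What else differs between the sets is not given in the labels.

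Wild-type replicates 1 and 2 offered a comparison within replicates 1 and 2, with a reservation. Their values lined up with the other samples once most blocks of the array were moved by 1 row (r = 0.85 and 0.87, from 0.37 and 0.38), and both are used here only after that move, with 1 mean per group and set. Of 26 members tested, 17 were lower in siRNA replicates 1 and 2 than in these wild-type samples and 1 higher, where 11.7% and 6.32% of probes were. Ly86 differed by -4.26, Gpr34 by -4.27, Pik3cg by -2.92, Aif1 by -2.88 and Laptm5 by -1.72. In null replicates 1 and 2, 2 members were lower and 2 higher, where 12.4% and 4.56% of probes were, and the median was 0.30. Lyz2 was higher in both comparisons, by 4.78 and 5.76, and Itgam lower in both, by 3.92 and 2.24. The moved values of Lyz2, Itgam and Tnfaip8l2 turned the direction of other fits, so these 3 are the least certain.

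The other 7 members with a probe had too few values to test. Alox5, Fli1 and Nfam1 were measured in all 7 wild-type and null samples and in none of the siRNA samples. Fli1, an ETS transcription factor of blood and endothelial cells, read -2.25, -1.94 and -1.81 in wild type and -1.25, -1.23, -1.88 and -1.04 in null. A missing value carries no reason in the table, so no level follows from it. Cd52, a small surface glycoprotein of leukocytes, had values in replicates 1 and 2 only, at 5.79 and 6.03 in null and at 3.65 and 3.37 after siRNA. Cybb, the membrane subunit of the phagocyte oxidase, likewise read 0.99 and 0.71 in null and -0.33 and -0.37 after siRNA. Was, an actin nucleation factor of blood cells, read 0.28 and 0.55 in siRNA replicates 1 and 2 and -3.50 and -2.83 in replicates 3 and 4, against -0.32, -0.41 and -0.13 in wild type. P2ry12, the purinergic receptor that marks resting microglia, was measured in 5 samples, at -0.29 and -3.15 in wild type, -0.76 in null replicate 3 and -1.56 and -3.39 in siRNA replicates 3 and 4.

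Of 11 defining microglial markers, all of them members, 9 had a probe and 8 were tested. After siRNA 5 of the 8 fell, where 2.12% of all probes did. Itgam lay below the array median in all 11 samples and P2ry12 in the 5 that measured it, and without a background signal the table does not show which markers were detected. A second list held 77 myeloid genes outside the members. Of 52 tested, 14 fell and 1 rose after siRNA (2.12% and 5.40% of all probes), with a median of -1.06. Those with the smallest p were Olfml3, a secreted protein of microglia (fell by 2.29; limma, adjusted p = 0.00846), Stab1, a scavenger receptor (fell by 3.09; limma, adjusted p = 0.00943), Fyb, an adaptor of leukocytes (fell by 2.50; limma, adjusted p = 0.0097), and Dock2, an activator of Rac (fell by 2.42; limma, adjusted p = 0.0118). In replicates 3 and 4, 13 of the 52 were higher in null than in siRNA samples and 8 lower, where 21.6% and 10.3% of all probes were. For the 29 members the counts were 12 and 2. Sall1, a transcription factor of microglia and of neural progenitors, rose by 1.71 after siRNA (limma, adjusted p = 0.0488). Against siRNA, 10 of the 52 were higher in null and 1, the receptor gene Tlr2, lower, where 3.81% and 2.60% of probes were. The change between replicate sets was called lower in 15 of 52 and higher in 2, where 6.19% and 12.1% of probes were. It was -5.49 for Ms4a6d, -3.81 for Mpeg1 and -4.60 for Clec7a (limma, adjusted p = 0.000856, 0.0022 and 0.00397). Over the 11 samples with 1 mean per group and set, 6 of the 52 were called lower (1.71% of probes) and 0 higher.

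Markers of other blood cells gave little to set beside this. Of 19 lymphoid genes 3 were tested and of 12 neutrophil genes 3, and 0 of either passed between any 2 groups in the model with replicate set and dye. Among 13 red cell and platelet genes 2 were tested. Of them the chemokine gene Pf4 followed the members, at 2.38, 1.52 and 2.62 in wild type, 4.33, 4.49, 0.24 and 1.15 in null and 0.32, 0.49, -0.71 and 0.75 after siRNA. It fell by 2.91 after siRNA (limma, adjusted p = 0.0368). The other, the globin gene Hba-a1, did not follow them. It read 0.69, 0.38 and 1.63 in wild type and 3.81, 3.51, 1.34 and 1.33 in null. Its siRNA values were 3.62, 3.75, 0.40 and 0.97, and those of replicates 1 and 2 lay between the null values of that set. Of 22 lysosomal genes outside the members, 1, the protease gene Ctsb, fell by 1.83 after siRNA (limma, adjusted p = 0.0124) and 0 rose. Across all probes 2.12% fell and 5.40% rose.

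Genes of other cell types moved with the samples as well. Gja1 itself is among the 18 astrocyte genes measured in all samples, so its own low values enter their mean. That mean was 3.31 to 3.79 in wild type, 2.70 and 2.74 in null replicates 1 and 2, and 4.00 and 3.67 in null replicates 3 and 4. It was 1.58 and 2.01 in siRNA replicates 1 and 2 and 3.24 and 3.50 in siRNA replicates 3 and 4. The mean of siRNA replicates 3 and 4 was thus close to wild type, but single genes moved either way. Slc4a4 read 1.66 and 1.98 there against 3.87 to 5.12 in wild type, and Aldh1l1 4.43 and 4.60 against 2.20 to 2.78. Of 21 astrocyte genes tested, 2 fell and 2 rose after siRNA (2.12% and 5.40% of all probes). Fibroblast and vessel wall genes (7 genes) averaged 1.78 to 3.66 in wild type, 0.17 to 2.24 in null and -0.42 to 0.81 after siRNA. Of 8 such genes tested, 2 fell after siRNA (2.12% of all probes). The part of cell composition in the members' differences was not tested.

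Of 15 inflammatory mediators tested, 6 rose and 0 fell after siRNA (5.40% and 2.12% of all probes). The chemokine genes Cxcl10 and Ccl7 rose by 5.37 and 6.26 (limma, adjusted p = 0.00018 and 0.000443), Lcn2, an acute-phase carrier of iron chelators, by 4.77 (limma, adjusted p = 0.00118) and Ccl5 by 4.40 (limma, adjusted p = 0.00246). Cxcl10 read 0.05 to 0.70 in wild type, 0.76 to 1.40 in null and 5.08 to 6.31 after siRNA, and so did not overlap between siRNA and the rest. Within the null group 8 of the 15 mediators were lower in replicates 3 and 4 than in replicates 1 and 2 and 1 higher. Of all probes 8.78% were lower and 48.5% higher there, and most members were lower. Their mean level (10 genes) was 2.05 and 2.19 in null replicates 1 and 2 and 0.66 and 0.40 in null replicates 3 and 4, against 0.09 to 1.14 in wild type. Ccl5 read 4.69 and 4.90 in null replicates 1 and 2 and -0.45 and 0.29 in replicates 3 and 4. The part of this response in the members' differences was not tested.

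Microglia depend on ligands made by other cells, among them Csf1 and Il34, which bind the receptor encoded by Csf1r, and transforming growth factor beta. Of 6 such ligand genes 5 were tested. Cx3cl1, the ligand of the microglial receptor encoded by Cx3cr1, rose by 2.27 after siRNA (limma, adjusted p = 0.00614), and 0 of the 5 fell. Across all probes 5.40% rose and 2.12% fell. Csf1 read 3.59, 3.97 and 3.07 in wild type, -0.42, -0.13, 2.84 and 3.21 in null and 0.96, 1.47, 4.31 and 4.88 after siRNA. It was lower in null than in siRNA samples by 1.53 (limma, adjusted p = 0.0164), as was Cx3cl1. Csf1 was higher in replicates 3 and above by 3.34 (limma, adjusted p = 9.93e-06). Tgfb2, Cx3cl1 and Il34 were called higher there as well, as were 40.4% of all probes. Tgfb1 read 0.65, 0.41 and 0.95 in wild type. Its null values were 0.07, 0.12, -1.56 and -0.99, and its siRNA values -1.11, -0.88, -0.97 and -0.19. Tgfb1 was higher in null than in siRNA replicates 1 and 2, by 1.08 (limma, adjusted p = 0.045). It was lower in null replicates 3 and 4 than in null replicates 1 and 2, by 1.37 (limma, adjusted p = 0.00562). Its change between sets was -1.77 (limma, adjusted p = 0.0277), and it was 1.64 lower than wild type after siRNA without passing (limma, adjusted p = 0.0568). The part of these ligands in the members' differences was not tested.

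**Figure D5:**
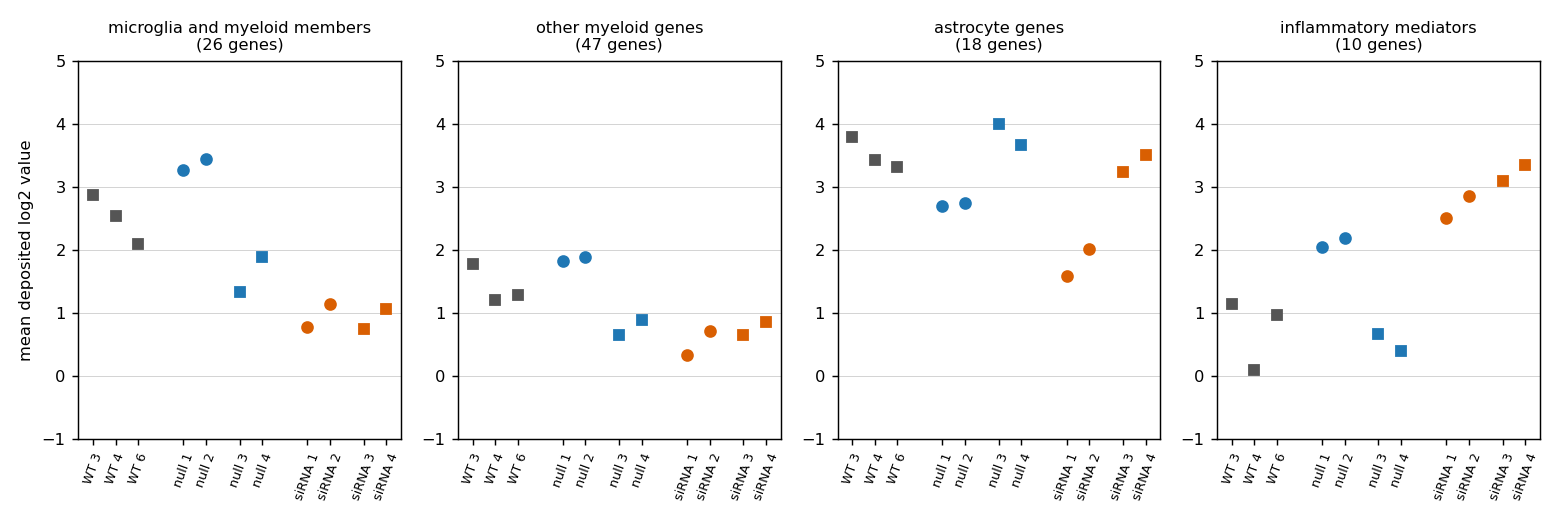
Mean deposited log2 value in each of the 11 samples over the genes measured in all of them: 26 members, 47 other myeloid genes, 18 astrocyte genes (Gja1 among them) and 10 inflammatory mediators. Circles are replicates 1 and 2 and squares replicates 3 and above. The members and the other myeloid genes are lowest after siRNA and in null replicates 3 and 4, the astrocyte genes are lowest in siRNA replicates 1 and 2, and the mediators are highest after siRNA.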

How the data were processed

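The deposited table holds 1 value per probe and sample from a 2-dye array, 33600 probes in 14 samples. The log2 values were centred by the authors on a median of 0 in each sample; the log2 scale was inferred from the values, while for the scanner, the background correction and any further normalization the sources used here give nothing. The deposited column of wild-type replicate 5 holds another, unknown quantity (unit: other) and was not used. Wild-type replicates 1 and 2 were left out of the main model; as an added alternative each of their 1344 block columns was moved by at most 2 rows where it then correlated with the other samples at 0.5 or more (788 moved 1 row up, 371 not moved, 36 otherwise, 149 left out).

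Genes were named from GEO's platform table: 18179 probes had 1 symbol, 87 several and 15334 none. The members and gene lists were chosen with earlier results of these data known. Each gene is read from the probe measured in most samples, then the highest mean. Per comparison up to 12 members are given in full, called members first and then the smallest p; of every other list at most 4 called genes are named, and genes with several probes where these differ.

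The additive model (limma 3.58.1 in R 4.3.3) had terms for group, replicate set (1 and 2 against 3 and above) and dye over 11 samples. Probes with at least 2 wild-type, 3 null and 3 siRNA values entered (16307), with Benjamini-Hochberg adjustment over all of them and a threshold of 0.05. The change between sets was fitted on the 8 null and siRNA samples with 1 mean per group and set (16587 probes). Null and siRNA samples with the same replicate number deviated together from their group means (r = 0.618, 0.635, 0.646 and 0.564). Different numbers of the same set gave 0.392 to 0.596. Samples with the same number also share the dye, so these values cannot show a pairing apart from dye. The main fits do not pair samples by number, and only the alternative with the replicate number as a block does. The model code was tested on simulated data. Tables were made with Python 3.11.15 and pandas 2.3.3.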

Additional observations from a re-analysis of the deposited data

Results flagged for a closer look

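Within groups of 4 samples, 1 null sample lay far from the other 3 in 3 members: the lowest null value was 2.35 for Coro1a, -2.35 for Fcgr2b and 1.58 for Cd14. These are 3 of 54 groups examined, and chance alone marks about 1 group in 20.

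The difference between null and siRNA samples was itself different between replicates 3 and 4 and replicates 1 and 2 in 14 members (limma on 8 samples, adjusted p between 0.00391 and 0.0482). The change was -4.657 for Lcp1, -3.95 for Ly86, -3.54 for C1qc, -3.067 for Rac2, -2.915 for Fcgr2b, -2.853 for Cd53 and -2.491 for Ptprc. It was -2.477 for Gpr34, -2.305 for Ctss, -2.17 for Fcer1g, -2.051 for Fcgr3, -1.857 for Tyrobp, -1.635 for Itgb2 and -1.4 for Cd86. The calls of C1qc, Rac2 and Lcp1 were kept whichever sample was left out.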

How the results depend on the processing

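Of the values of named members, 538 kept direction and side of the threshold under the alternatives other than leaving out a sample, 100 lost the call, 11 gained one and 15 reversed; the cause was not tested. Counts are given for all probes (main counts 59 for null against wild type, 1226 for siRNA against wild type, 1046 for null against siRNA) and for members. Without the replicate set term they were 0, 39 and 73 for all probes, 1 and 3 members for the last 2 comparisons, and Laptm5 turned to 0.336 in null minus wild type. Without the dye term null against wild type gave 145 probes and the change between sets 9 members. With the replicate number as a block, null against wild type gave 181 probes and 0 members; 15 members were called in siRNA against wild type and 15 in null against siRNA, and no call of a member named in full was lost. With consecutive samples as a random block (correlation 0.4516) all probes gave 0, 202 and 120, the set term 4979, and members 5, 4 and 5 (siRNA against wild type, null against siRNA, set). With all samples scaled to one spread all probes gave 10, 316 and 638, null against siRNA in replicates 1 and 2 gave 1328, and the change 9 members. All 14 columns as deposited gave 0, 42 and 23 probes and 2 and 2 members; null minus wild type turned to 1.997 for Laptm5, 1.568 for C1qa, 3.157 for Lyz2, 2.846 for C1qc and 0.495 for Gpr34, and siRNA minus wild type to 0.01 for C1qa and 0.186 for Fcgr3. Adding the moved wild-type replicates (an alternative chosen after seeing the data) gave 0, 808 and 609 probes; null minus wild type turned to 0.739 for Tnfaip8l2, -0.627 for Itgam and 1.728 for Lyz2, and the set term to 1.188 for Lyz2. Replicates 3 and above alone gave 877 probes and 4 members for null against wild type, and 1893 and 6 for null against siRNA. With 1 mean per group and set (also chosen after seeing the data) null replicates 3 and 4 against wild type gave 901 probes and 5 members, the change 596 and 5, null against siRNA 689 in replicates 1 and 2, and 2057 and 8 in replicates 3 and 4. Other probes gave -0.04 and -0.164 for Clec4a2 (null minus wild type, null minus siRNA). For Coro1a another probe gave -0.341 (null minus siRNA) and -1.771 (siRNA minus wild type). Leaving out 1 sample gave, for all probes, 1 to 133 for null against wild type, 231 to 1191 for siRNA against wild type, 311 to 1437 for null against siRNA, 5956 to 7899 for the set, 252 to 6029 for the change, 151 to 5967 for replicates 1 and 2 and 1198 to 7659 for replicates 3 and 4. For members the ranges were 0 to 1 (Clec4a2, without wild-type replicate 3), 8 to 14, 8 to 15, 6 to 13, 3 to 18, 1 to 27 and 4 to 16; siRNA minus wild type of Gja1, positive only without wild-type replicate 4, ran from -1.101 to 0.253. Signal over background is unknown, so what it limits could not be set.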
